A study of Rattus norvegicus with 12 samples.

Results

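Retina and choroid at postnatal day 7 (P7) were compared in 4 of the 12 small RNA libraries of a rat study, with 1 library each for the CTL retina, the CTL choroid, the OIR retina and the OIR choroid. The 4 libraries were chosen by the age and tissue in their labels, and the retina was set against the choroid within each arm. The study examined microRNAs (miRNAs) in oxygen-induced retinopathy (OIR), a model in which newborn pups breathe oxygen that cycles between high and low levels, so that the growing vessels of the retina degenerate before vessels regrow abnormally. All pups were albino Sprague Dawley rats. CTL pups, given as normoxic, stayed in room air, and OIR pups (spelled ROI in some labels) were still in the oxygen cycles at P7. Each library was made from a pool of 5 retinas or 5 choroids, and the sources used here do not say whether retina and choroid came from the same eyes.

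The retina is a sheet of neurons, glia and photoreceptors with a thin net of vessels. The choroid is the vascular connective tissue behind it, separated from the retina by the pigment epithelium, a layer without dark pigment in albino rats. miRNAs are short RNAs that lead Argonaute proteins to messenger RNAs, mainly through the seed near their 5′ end. Several are largely restricted to a cell type. The cluster of miR-182, miR-183 and miR-96 belongs to photoreceptors and other sensory cells, miR-9 and miR-124 to neurons, miR-126 to endothelium (from an intron of Egfl7), miR-199a, miR-214, miR-143 and miR-145 to connective tissue and mural cells, and miR-1, miR-133 and miR-206 to striated muscle.

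The mature sequences that the tissue comparison turned on are given first, because they name the cell types that each pool held. They are RefSeq sequences (build GRCr8), written 5′ to 3′ with the seed, bases 2 to 8, in capitals. A RefSeq sequence was matched by name for 676 of the 750 miRNA entries of the deposited tables, and for 90 of the 100 that reached 1000 RPM (UMIs per 1e+06 miRNA UMIs) in at least 1 of the 4 P7 libraries. The first 4 had OIR ratios above 2 on the retina side, and the other 7 on the choroid side.
miR-182: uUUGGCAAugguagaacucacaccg
miR-183-5p: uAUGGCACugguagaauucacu
miR-96-5p: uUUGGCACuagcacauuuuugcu
miR-9a-5p: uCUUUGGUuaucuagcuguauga
miR-126a-3p: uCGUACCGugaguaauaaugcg
miR-199a-3p: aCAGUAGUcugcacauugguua
miR-199a-5p: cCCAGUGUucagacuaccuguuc
miR-143-3p: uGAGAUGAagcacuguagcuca
miR-206-3p: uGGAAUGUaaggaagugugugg
miR-1-3p: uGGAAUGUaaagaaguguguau
miR-1b: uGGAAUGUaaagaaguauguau
The mature miR-182 lies at chr4:59752249-59752273, miR-96-5p at chr4:59755901-59755923 and miR-183-5p at chr4:59756106-59756127, all on the minus strand, within 1 hairpin cluster of 3908 bases. The table places miR-126a-3p at chr3:29813219-29813240 on the plus strand, miR-143-3p at chr18:57371373-57371394 on the minus strand and both miR-199a arms in Mir199a2 on chromosome 13. miR-1-3p and miR-1b differ by 1 base, written G17A from miR-1-3p to miR-1b with positions counted from the 5′ end, so their counts could have been shared out by the alignment.

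A second set shows seed families whose members lay on different sides of the tissue comparison although their seeds are the same.
miR-29a-3p: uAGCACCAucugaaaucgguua
miR-29b-3p: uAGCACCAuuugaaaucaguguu
miR-29c-3p: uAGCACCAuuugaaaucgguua
miR-15b-5p: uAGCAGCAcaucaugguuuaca
miR-16-5p: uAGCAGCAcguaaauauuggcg
miR-195-5p: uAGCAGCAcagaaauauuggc
miR-322-5p: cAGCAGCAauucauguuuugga
miR-497-5p: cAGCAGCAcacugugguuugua
miR-34a-5p: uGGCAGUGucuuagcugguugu
miR-34c-5p: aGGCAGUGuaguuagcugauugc
miR-148a-3p: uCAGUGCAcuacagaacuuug
miR-148b-3p: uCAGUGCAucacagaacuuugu
miR-152-3p: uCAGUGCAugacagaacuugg
let-7a-5p: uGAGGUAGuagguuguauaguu
let-7c-5p: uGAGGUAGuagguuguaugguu
let-7g-5p: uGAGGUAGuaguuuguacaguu
From miR-29a-3p to miR-29c-3p the only difference is C10U, and from let-7a-5p to let-7c-5p it is A19G.

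The 4 libraries held 15402469 to 17645910 reads and 9439805 to 11263013 miRNA unique molecular identifiers (UMIs, tags that mark single captured molecules), and 625 to 691 miRNAs were listed in each. The tables list a miRNA from 10 UMIs, so one that is not listed was below 10 and not necessarily absent. Ratios were taken as retina RPM over choroid RPM, with exact (Clopper-Pearson) 95% intervals that cover counting error only. With 1 pool per group there was no replicate, and therefore no SD and no test within an arm.

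In the CTL arm the pool labelled choroid did not stand apart from the retina by its leading miRNAs. The same 5 miRNAs led both pools in the same order, namely miR-9a-5p, miR-182, miR-16-5p, miR-183-5p and let-7f-5p, and they held 47.3% of the miRNA UMIs of the retina pool and 40.5% of those of the choroid pool. In the OIR arm the choroid was led by the endothelial miR-126a-3p, followed by the connective tissue miR-199a-3p and by miR-125b-5p (53479 RPM), while the OIR retina kept miR-9a-5p and miR-182 in front. The label of the CTL choroid is therefore used as a name. The same holds for the CTL retina, where miR-199a-3p read 15510 RPM against 382 RPM in the OIR retina. Most results below are given in both arms, and some for OIR alone. The CTL ratios, the mixing shares of the CTL pools and the main test of the tissues use the CTL libraries and cannot be read without them.

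Among the 403 miRNAs that reached 100 UMIs in either CTL library, 0 (0%) were above a retina to choroid ratio of 2 and 21 (5.21%) were below 0.5. The median size of the log2 ratio was 0.28, and 204 miRNAs (50.6%) lay between ratios of 0.8 and 1.2. The range ran from -2.45 for miR-206-3p, a skeletal muscle miRNA, to 0.84 for miR-19a-5p, a passenger arm of the miR-17 cluster that was read at 10.9 RPM in the retina. Every miRNA with at least 100 UMIs in 1 CTL tissue was listed in the other as well.

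In the OIR arm 73 of 418 miRNAs (17.5%) were above 2 and 139 (33.3%) were below 0.5. The median size of the log2 ratio was 1.02, and 74 miRNAs (17.7%) lay between 0.8 and 1.2. The range was wider on the choroid side, from -7.48 for miR-199a-5p to 2.69 for miR-124-3p, with 36 miRNAs at least 16-fold higher in the choroid and 0 at least 16-fold higher in the retina. Again, no miRNA with at least 100 UMIs in 1 tissue was unlisted in the other. The plot of retina against choroid levels shows most CTL points near the line of equal levels and the OIR points spread to both sides of it.

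**Figure D1:**
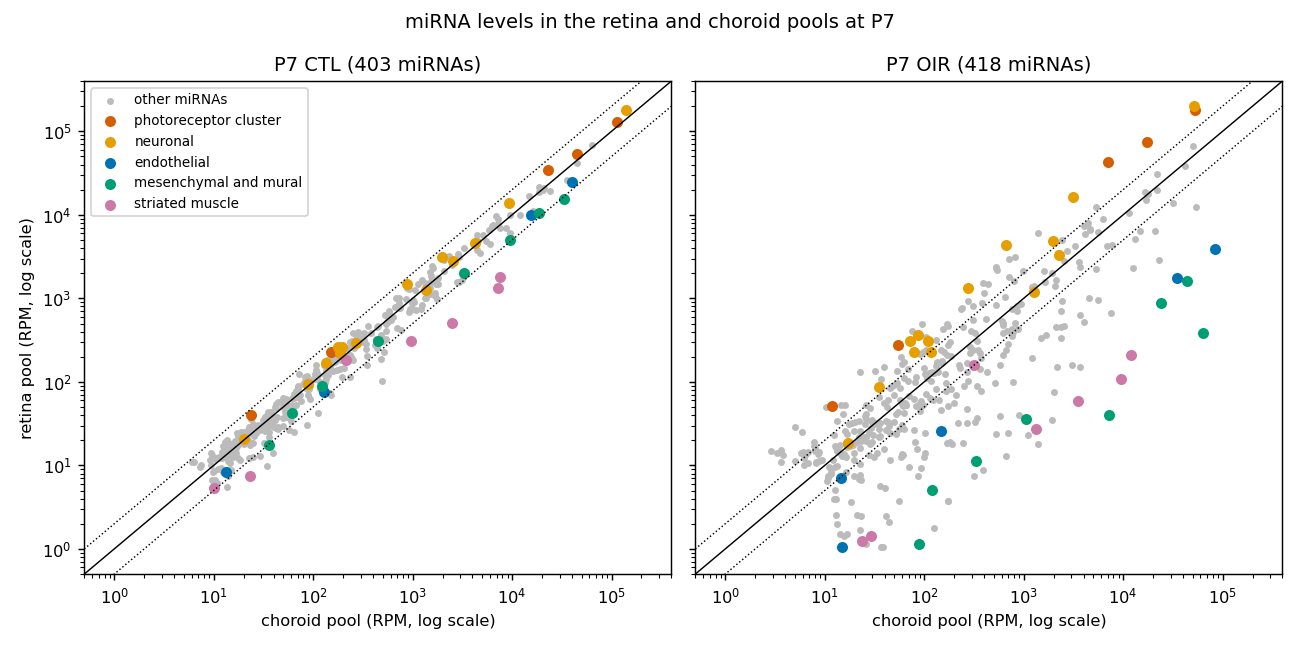
Each point is 1 miRNA that reached 100 UMIs in either library of its arm, with its RPM in the choroid pool on the x axis and in the retina pool on the y axis (log scales), for 403 miRNAs in CTL (left) and 418 in OIR (right). The solid line marks equal levels and the dotted lines a ratio of 2 in each direction. In CTL most coloured points lie between the dotted lines, but 5 striated muscle and 2 connective tissue and mural miRNAs are below a ratio of 0.5. In OIR most coloured points lie beyond the dotted lines, while some neuronal ones such as miR-128-3p do not.

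Across the 6 retina and choroid pairs of the series, P7 CTL had the fewest miRNAs past 2-fold. The share past 2-fold in either direction was 5.21% in P7 CTL and 50.7% in P7 OIR, against 57.5% in P14 CTL, 51.6% in P14 OIR, 54.2% in P17 CTL and 53.6% in P17 OIR. The UMIs that 2 profiles shared, summed as the lower RPM of each miRNA, came to 88.2% in P7 CTL and 51.3% in P7 OIR, and to between 43.8% and 49.0% in the other pairs. The Spearman correlation of the 2 profiles was taken over the 297 miRNAs with at least 100 UMIs in all 12 libraries. This leaves out miRNAs that were scarce in any library. It was 0.985 in P7 CTL, 0.767 in P7 OIR and 0.714 to 0.787 in the older pairs, as a description across miRNAs of the same libraries. No test between pairs was possible with 1 pool per group.

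**Figure D2:**
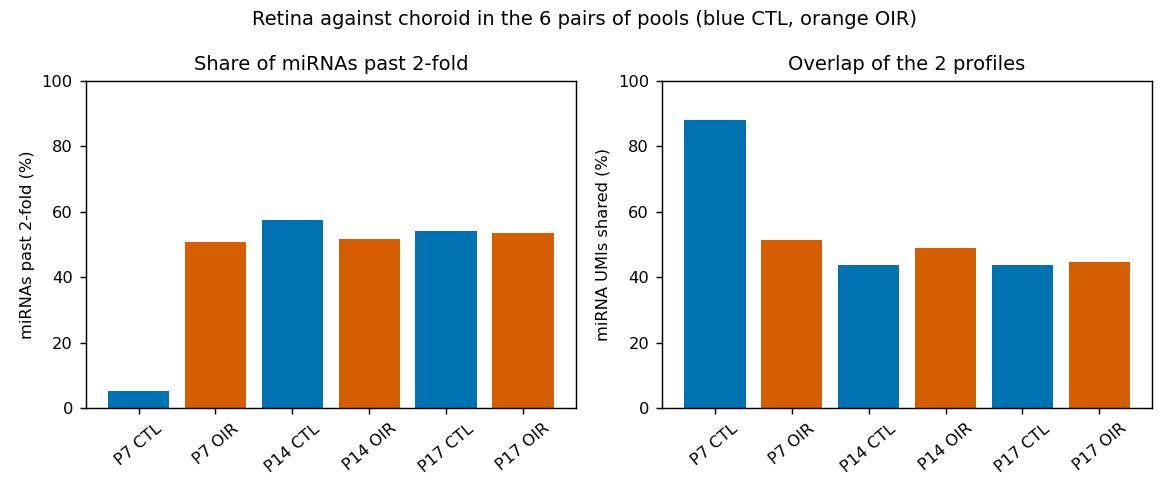
Bars give, for each of the 6 retina and choroid pairs, the percent of miRNAs past 2-fold (left) and the percent of miRNA UMIs that the 2 profiles share (right), with CTL in blue and OIR in orange and 1 library per tissue. P7 CTL stands apart with 5.21% past 2-fold and 88.2% shared.

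The 4 P7 pools could also be ordered by their distance from one another. The median size of the log2 difference was 0.28 between the 2 CTL pools, 0.31 between the CTL and the OIR retina, and 0.50 between the CTL and the OIR choroid. By this measure the CTL choroid was as far from the OIR retina (0.50) as from the OIR choroid (0.50). Its Spearman correlation, over the same set of miRNAs as above, was 0.881 with the OIR retina and 0.961 with the OIR choroid. By that correlation it was nearer the OIR choroid. The CTL retina was farther from the OIR choroid (0.81), and the 2 OIR pools were farthest apart (1.02).

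The direction of a miRNA was mostly the same in both arms. Of 100 miRNAs with at least 1000 RPM in 1 of the 4 pools, 93 lay on the same side of a ratio of 1 in CTL and OIR, and for 87 of them the OIR ratio was farther from 1. None of the 100 was above 1.2 in one arm and below 0.8 in the other. The 7 on opposite sides, named after their values were seen, were let-7d-5p, miR-130a-3p, miR-26a-5p, miR-26b-5p, miR-30a-5p, miR-532-5p and miR-3553. For the first 6 the log2 ratio was between 0.01 and 0.11 in CTL and between -0.63 and -0.01 in OIR. miR-3553 read 1774 RPM in the CTL retina, 1785 RPM in the CTL choroid, 2302 RPM in the OIR retina and 532 RPM in the OIR choroid. It was level between the CTL pools and 4.33-fold (95% interval 4.20 to 4.46) higher in the OIR retina, the largest gain of ratio between the arms at this level (2.12 on the log2 scale). The RefSeq table places it on the plus strand at chr4:59756105-59756127, over miR-183-5p on the minus strand, and since strand use in the counting is not given in the sources used here, reads of this antisense pair may not be separable.

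The photoreceptor cluster was higher in the retina in both arms, slightly in CTL and several-fold in OIR. All 5 entries had ratios above 1 in CTL, with 0 above 2 and a median log2 ratio of 0.57. In OIR all 5 were above 2, with a median of 2.12. Over all miRNAs with at least 20 UMIs, the level used for lists, 3 of 597 (0.503%) were above 2 and 35 (5.86%) below 0.5 in CTL, with a median log2 ratio of -0.02. In OIR 81 of 604 (13.4%) were above 2 and 204 (33.8%) below 0.5, with a median of -0.34.

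miR-182 read 129825 RPM in the CTL retina, 113470 RPM in the CTL choroid, 181113 RPM in the OIR retina and 52851 RPM in the OIR choroid. The CTL pools were near each other and lay between the OIR pools, and the retina was 1.14-fold (1.14 to 1.15) higher in CTL and 3.43-fold (3.42 to 3.44) higher in OIR. miR-183-5p read 53713, 45261, 75090 and 17285 RPM in the same order of pools, with ratios of 1.19 (1.18 to 1.19) in CTL and 4.34 (4.32 to 4.37) in OIR. miR-96-5p read 34389, 23238, 42767 and 7076 RPM, with ratios of 1.48 (1.47 to 1.49) and 6.04 (6.00 to 6.09). The 3 members of this sensory cluster thus shared the order OIR retina, CTL retina, CTL choroid, OIR choroid, and miR-96-5p had the widest ratio of the 3 in both arms. In bulk pools fewer cells of a type and less miRNA per cell cannot be told apart.

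Of the 15 neuronal miRNAs, 10 had the same order of pools as the photoreceptor miRNAs above and 5 did not. The order also held for 5 of 9 miRNAs of the miR-17 clusters and 3 of 22 of the Dlk1-Dio3 cluster. It held for 1 of 5 of the miR-30 family and 1 of 3 of the miR-29 family. It was thus not particular to neuronal or photoreceptor miRNAs, and its share over all miRNAs is not given here. Of 15 neuronal miRNAs counted in CTL, 14 were above a ratio of 1 and 0 above 2, with a median log2 ratio of 0.35; of 14 counted in OIR, 13 were above 1 and 10 above 2, with a median of 1.53. miR-9a-5p, a regulator of neural progenitors that is also made in Müller glia, read 178289 RPM in the CTL retina, 138585 RPM in the CTL choroid, 203618 RPM in the OIR retina and 51254 RPM in the OIR choroid. Its retina to choroid ratio was 1.29 (1.28 to 1.29) in CTL and 3.97 (3.96 to 3.99) in OIR. miR-124-3p, which represses non-neuronal transcripts in neurons, read 3115, 1985, 4307 and 668 RPM, and its OIR ratio of 6.45 (6.28 to 6.62) was the highest among miRNAs of at least 1000 RPM. Not every neuronal miRNA separated the tissues. miR-128-3p read 1254, 1367, 1200 and 1272 RPM, so that its 4 pools were within a narrow range, and miR-132-3p, a miRNA of active neurons, had an OIR ratio of 1.09 whose interval (0.880 to 1.35) spanned 1.

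Outside the marker lists, the retina side of OIR at this level held miR-181a-1-3p (log2 ratio 2.17), miR-9b-3p (2.12), miR-135a-5p (2.05) and miR-190b-5p (2.03). In CTL their log2 ratios were 0.46, 0.37, 0.64 and 0.27. miR-9b-3p lies on the strand opposite to miR-9a in the RefSeq table, with the same limit as miR-3553. Among the 10 highest CTL ratios were also miR-210-3p, the miRNA induced by hypoxia-inducible factors, and miR-19a-3p, miR-19b-3p and miR-20a-5p of the proliferation-linked miR-17 cluster. miR-210-3p read 1023 RPM in the CTL retina, 687 RPM in the CTL choroid, 1146 RPM in the OIR retina and 401 RPM in the OIR choroid, the same order of pools as the photoreceptor cluster. All 9 miRNAs of the miR-17 clusters were above 1 in both arms, 0 of them above 2 in CTL and 5 above 2 in OIR, with medians of 0.29 and 1.11 on the log2 scale.

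Connective tissue and mural cell miRNAs were higher in the choroid in both arms, and the 2 arms of miR-199a had the widest OIR ratios of single miRNAs. All 9 entries were below a ratio of 1 in CTL, 2 of them below 0.5 (median log2 ratio -0.72), and all 9 were below 0.5 in OIR (median -4.89). miR-199a-3p, which targets growth and adhesion genes in mesenchymal cells, read 15510 RPM in the CTL retina, 33280 RPM in the CTL choroid, 382 RPM in the OIR retina and 63879 RPM in the OIR choroid. The OIR retina was far below the other 3 pools, and the choroid was 2.15-fold (2.13 to 2.16) higher in CTL and 167-fold (162 to 173) higher in OIR. Its partner arm miR-199a-5p read 2004, 3303, 40.5 and 7259 RPM, a choroid excess of 1.65-fold (1.62 to 1.68) in CTL and 179-fold (163 to 197) in OIR. miR-143-3p, a miRNA of smooth muscle and pericytes, read 10636, 18779, 1632 and 43800 RPM, with a choroid excess of 1.77-fold (1.75 to 1.78) and 26.8-fold (26.4 to 27.2). The summed level of the list in the retina was 51.3% of that in the choroid in CTL and 2.13% in OIR, against 1.98% to 5.51% in the 4 older pairs.

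Endothelial miRNAs had the same direction with smaller ratios. All 5 were below a ratio of 1 in CTL, 0 of them below 0.5 (median log2 ratio -0.70), and all 5 were below 0.5 in OIR (median -3.83). miR-126a-3p, which sustains VEGF signalling in endothelium, read 24812 RPM in the CTL retina, 40296 RPM in the CTL choroid, 3889 RPM in the OIR retina and 83192 RPM in the OIR choroid. The choroid excess was 1.62-fold (1.62 to 1.63) in CTL and 21.4-fold (21.2 to 21.6) in OIR. The summed list in the retina was 62.6% of the choroid in CTL and 4.82% in OIR, and between 9.93% and 11.5% in the P14 and P17 pairs of both arms. The P7 OIR retina therefore carried the lowest endothelial level relative to its choroid of the 6 pairs, as a value of 1 pool and without a test.

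Striated muscle miRNAs had the largest CTL median difference of the 16 lists. In CTL 7 of 8 were below a ratio of 1 and 5 below 0.5 (median log2 ratio -1.63), and in OIR 7 of 8 were below 0.5 (median -4.96). miR-206-3p, a miRNA of skeletal muscle, read 1319 RPM in the CTL retina, 7225 RPM in the CTL choroid, 108 RPM in the OIR retina and 9463 RPM in the OIR choroid. The 2 choroids were near each other, while the retinas were lower by 5.48-fold (5.38 to 5.58) in CTL and 87.7-fold (82.7 to 93.0) in OIR. miR-1b read 1806, 7537, 210 and 12091 RPM and miR-1-3p read 503, 2494, 59.3 and 3559 RPM, in the same order of pools. These miRNAs are known from skeletal and heart muscle and are used here as markers of muscle in the choroid pools.

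Other lists of the choroid side were less abundant. Surface epithelium miRNAs (the miR-200 family, miR-203a, miR-205 and miR-184) were all 8 below a ratio of 1 in both arms, with 6 below 0.5 in CTL (median log2 ratio -1.27) and 8 in OIR (median -5.43). miR-205, a miRNA of stratified epithelia such as cornea and lid, read 228 RPM in the CTL retina, 514 RPM in the CTL choroid, 18.04 RPM in the OIR retina and 1381 RPM in the OIR choroid, lowest in the OIR retina. Leukocyte miRNAs (6 of 6) and erythroid miRNAs (4 of 4) were below 0.5 in OIR, with medians of -3.19 and -3.36 on the log2 scale, and 0 were below 0.5 in CTL. Of 4 cartilage miRNAs, 0 were below 0.5 in CTL and 3 in OIR (median -2.93). Of the Hox cluster miRNAs, which mark positional identity along the trunk and limbs, 2 of 4 counted were below 0.5 in CTL and 2 of 3 in OIR.

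miRNAs of the pigment epithelium, which can adhere to either tissue on dissection, had the smallest OIR median among the cell type lists of the choroid side. miR-204-5p, needed for the differentiation of that layer, read 10022 RPM in the CTL retina, 12032 RPM in the CTL choroid, 6325 RPM in the OIR retina and 14727 RPM in the OIR choroid. Its log2 ratio was -0.26 in CTL and -1.22 in OIR, on the choroid side in both arms. miR-211-5p, its close relative from an intron of Trpm1, read 1146, 1661, 711 and 2385 RPM, with an excess of 1.45-fold (1.42 to 1.48) and 3.35-fold (3.27 to 3.44). Of the 4 entries, 0 were below 0.5 in CTL and 3 in OIR (medians -0.40 and -1.48).

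The 5 miRNAs of the widely expressed miR-30 family had 0 past 2-fold in either arm, with a median of 0.16 in both arms on the log2 scale. Of the 22 miRNAs of the imprinted Dlk1-Dio3 cluster, 0 were past 2-fold in CTL (median -0.20), while in OIR 1 was above 2 and 8 below 0.5 (median -0.74), close to the 33.8% below 0.5 over all miRNAs. The exception above 2 was miR-323-3p, which read 703 RPM in the CTL retina, 578 RPM in the CTL choroid, 775 RPM in the OIR retina and 241 RPM in the OIR choroid.

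**Figure D3:**
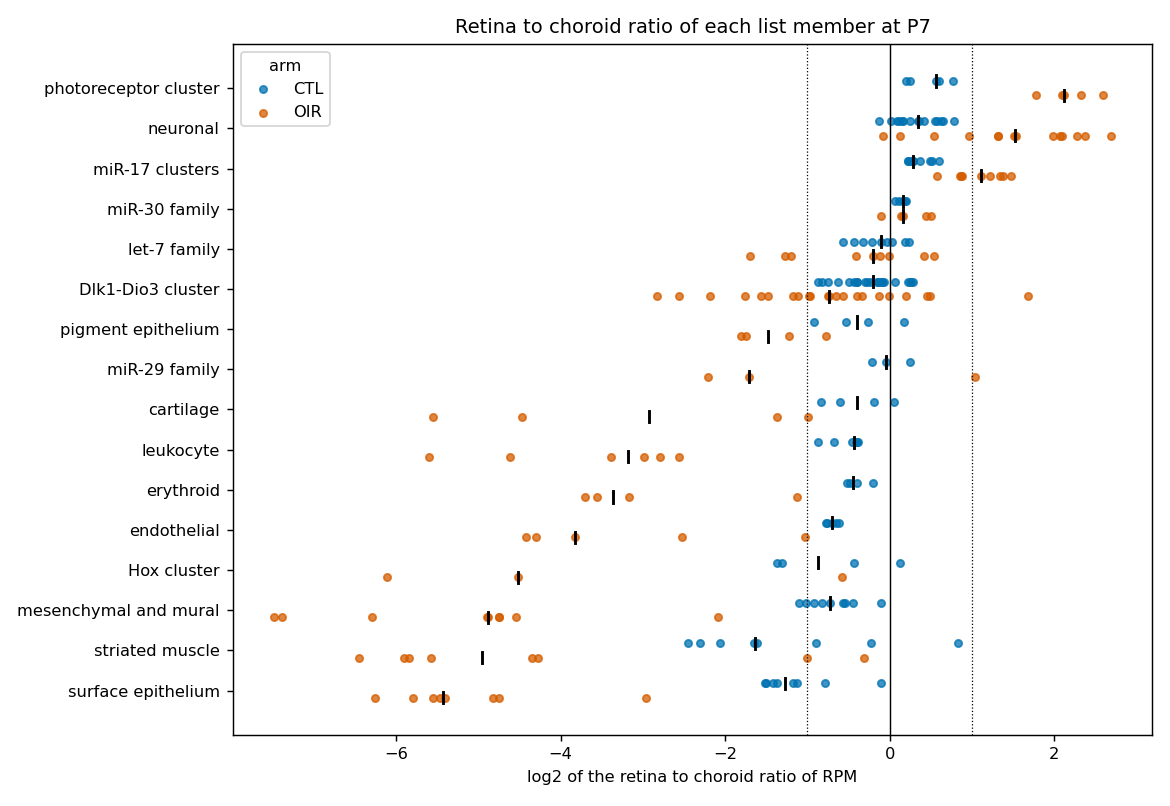
Each point is the log2 retina to choroid ratio of 1 list member that reached 20 UMIs in either library of its arm, in CTL (blue) and OIR (orange), and the black bar is the median of the list in that arm; dotted lines mark 2-fold. The OIR medians run from -5.43 for surface epithelium to 2.12 for the photoreceptor cluster, while the CTL medians run from -1.63 to 0.57.

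Members of a seed family can act on the same target sites, so the families were compared within. In 36 families with at least 2 members (102 miRNAs), the median range of log2 ratios within a family was 0.30 in CTL and 1.27 in OIR, and it exceeded 2 in 0 families in CTL and in 9 in OIR. In OIR 3 families held members past 2-fold in both directions. In the families of miR-29a-3p and miR-34a-5p the members above 2 were close to that threshold. In the miR-29 family, which represses collagens and other matrix genes, miR-29a-3p read 901 RPM in the CTL retina, 1041 RPM in the CTL choroid, 457 RPM in the OIR retina and 2118 RPM in the OIR choroid, a log2 ratio of -2.21 in OIR. miR-29c-3p, which differs from it by C10U alone, read 3400, 2861, 5019 and 2448 RPM, a log2 ratio of 1.04. The members of this family had opposite sides in OIR, and its summed level in the choroid was 89.1% of that in the retina. With reads in place of UMIs the OIR ratio of miR-29c-3p was not above 2.

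In the family of miR-15 and miR-16, which restrains cyclins and BCL2, the OIR log2 ratio was 1.23 for miR-15b-5p and 0.40 for miR-16-5p, and it was -1.45 for miR-195-5p, -2.44 for miR-322-5p and -2.49 for miR-497-5p. miR-16-5p was by far the most abundant, with 69421 RPM in the CTL retina, 63196 RPM in the CTL choroid, 66463 RPM in the OIR retina and 50390 RPM in the OIR choroid. In the family of miR-34a-5p and miR-449a-5p, miR-34a-5p, which p53 induces, had an OIR log2 ratio of -1.87. There miR-34b-5p (1.11), miR-34c-5p (1.06) and miR-449a-5p (1.02) were just above 2-fold. Their highest levels in any P7 pool were 19.1, 162 and 63.6 RPM in that order. In the family of miR-148 and miR-152, miR-148b-3p was level (0.14) and miR-148a-3p (-3.01) and miR-152-3p (-4.75) were on the choroid side.

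The let-7 family, abundant in differentiated cells, was on both sides of a ratio of 1. In CTL 0 of 9 members were past 2-fold, and in OIR 0 were above 2 and 3 were below 0.5, against 33.8% below 0.5 over all miRNAs. let-7c-5p read 11044 RPM in the CTL retina, 16417 RPM in the CTL choroid, 6399 RPM in the OIR retina and 20766 RPM in the OIR choroid. It was 3.25-fold (3.22 to 3.27) higher in the OIR choroid, and let-7b-5p and let-7i-5p were 2.41-fold and 2.30-fold higher there. let-7a-5p, which differs from let-7c-5p by 1 base, read 20023, 20476, 14952 and 17159 RPM and was within 1.15-fold between tissues in both arms. let-7g-5p was 1.45-fold (1.44 to 1.47) higher in the OIR retina. Near-identical let-7 members can exchange reads in alignment, so the values of single members are uncertain to that extent.

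**Figure D4:**
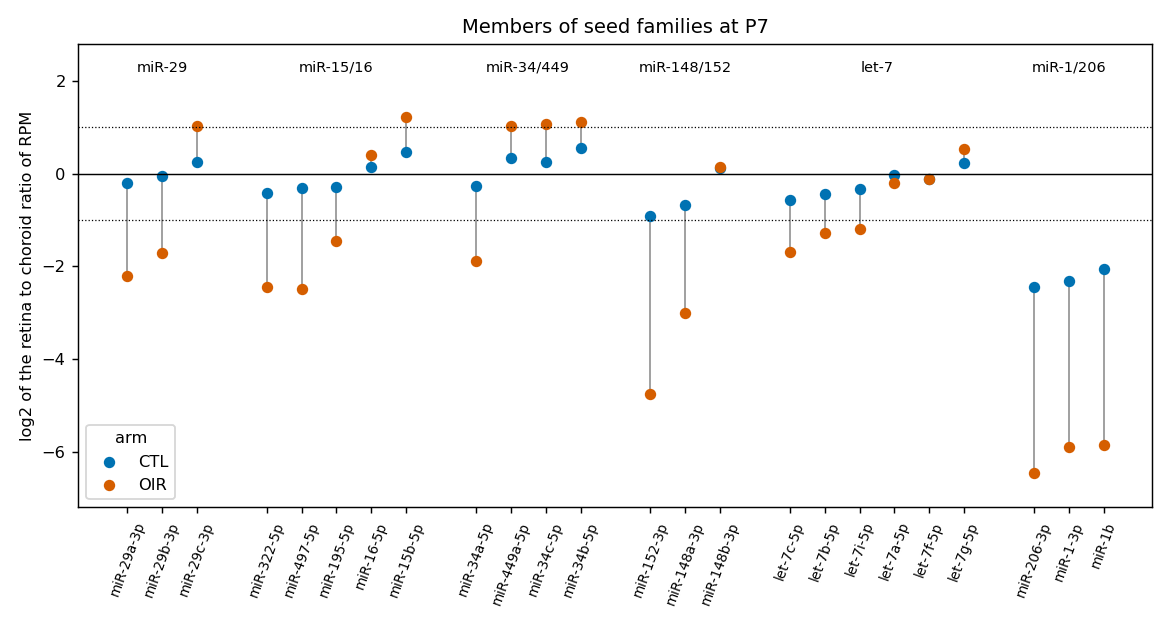
Points are the log2 retina to choroid ratio of named members of 6 seed families in CTL (blue) and OIR (orange), joined by a line for each miRNA; dotted lines mark 2-fold. In OIR the families of miR-29a-3p, miR-16-5p and miR-34a-5p have members past 2-fold on both sides. The retina-side members of the miR-29a-3p and miR-34a-5p families are close to the 2-fold line. The family of miR-1-3p and miR-206-3p lies between -6.45 and -5.85.

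miRNAs from 1 locus had similar OIR ratios in most small clusters, but not in several of the larger ones. In 31 clusters of hairpins on the same strand with gaps of at most 10000 bases (148 miRNAs), the median range of the OIR log2 ratio within a cluster was 0.66, and 23 clusters had a range below 1. The 5 miRNAs of the miR-183 cluster lay between 1.78 and 2.60, and the 4 of the cluster of miR-143 and miR-145 on chromosome 18 between -4.89 and -4.55. The largest cluster, 38 miRNAs of the Dlk1-Dio3 region on chromosome 6, ran from -3.31 to 1.68. Another cluster on chromosome 6 (12 miRNAs) had a range of 2.84, and the cluster of miR-322 and miR-503 on chromosome X (8 miRNAs) one of 2.25. Over 399 miRNAs the quartiles of the OIR log2 ratio were -1.51 and 0.65. Some clusters overlapped on opposite strands, such as those of let-7d-5p and miR-3596b on chromosome 17. Reads of such clusters may not be separable, as for miR-3553. Both arms of a hairpin were counted as members where both were listed. For 103 precursors with both arms counted, the 5p and 3p arms differed by a median of 0.18 in CTL and 0.35 in OIR (log2), and they were within 1 of each other for 103 and 93 precursors.

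Tissue mixing was estimated by placing each CTL pool on the line between the OIR retina and the OIR choroid. For 100 miRNAs with at least 1000 RPM in 1 P7 pool, the share was sought at which a blend of the 2 OIR profiles was nearest to the CTL pool in log2 RPM. The CTL retina was nearest to a blend with 19.7% choroid, and the CTL choroid to one with 46.1% choroid and 53.9% retina. The root mean square residual of the CTL retina was 0.29 on the log2 scale, against distances of 1.49 to the OIR retina and 1.43 to the OIR choroid. For the CTL choroid it was 0.31, against distances of 2.04 and 0.91. These are shares of miRNA UMIs and not of tissue or cells, and the references came from oxygen-treated pups, so blending of tissue and the oxygen treatment cannot be told apart.

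With other references the CTL shares were lower in choroid. The P14 and P17 CTL references differed from the P7 pools in age, so age and blending of tissue cannot be told apart in these shares. Against the P14 CTL pools the CTL retina was nearest to 11.2% choroid and the CTL choroid to 29.5% choroid. Against the P17 CTL pools the shares were 14.8% and 37.2%. These blends were farther from the CTL pools than those of the P7 OIR references, with root mean square residuals of 0.69 and 0.63 (P14) and 0.75 and 0.67 (P17). On the same scales the P7 OIR retina was nearest to 99.9% retina with either reference, and the P7 OIR choroid to 17.6% retina (P14) and 15.8% retina (P17). For the OIR retina the blend left a residual of 0.73 (P14), hardly below the distance of 0.74 to the P14 retina alone. The photoreceptor list in the choroid stood at 83.5% of its retina level in P7 CTL and 25.8% in P7 OIR. In the older pairs it stood at 7.70% in P14 CTL, 22.5% in P14 OIR, 7.12% in P17 CTL and 6.33% in P17 OIR.

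A single blend came within 0.5 (log2) of the CTL choroid for 91 of the 100 miRNAs and of the CTL retina for 95. Of the 9 misses in the CTL choroid, 3 were surface epithelium miRNAs, 3 striated muscle miRNAs and 3 in neither list, and of the 5 in the CTL retina these numbers were 2, 2 and 1. The largest residual above the blend was that of miR-138-2-3p in both pools (0.78 in the choroid and 0.59 in the retina). In the CTL choroid miR-203a-3p, a miRNA of skin and other stratified epithelia, was 1.16 below the blend, while miR-206-3p was 0.71 above it, and miR-19a-3p and miR-101a-3p, in neither list, had residuals of -0.57 and -0.51. In the CTL retina miR-200a-3p was 1.12 below the blend, miR-203a-3p 0.86 below and miR-206-3p 0.56 below.

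Single miRNAs that differed at least 4-fold between the OIR tissues gave a share each. In the CTL retina the 24 on the retina side gave a median choroid share of 19.7% and the 90 on the choroid side 21.6%. By list the medians were 25.8% for the photoreceptor cluster, 20.3% for neuronal, 25.7% for endothelial and 24.0% for connective tissue and mural miRNAs, but 15.9% for striated muscle, 8.44% for surface epithelium and 7.13% for erythroid miRNAs. In the CTL choroid the retina side gave 50.0% and the choroid side 44.6%. There the photoreceptor cluster gave 55.5%, neuronal miRNAs 54.3%, endothelial 43.6% and connective tissue and mural miRNAs 40.6%, whereas striated muscle gave 71.3%, surface epithelium 24.1% and erythroid miRNAs 14.7%. Leukocyte miRNAs gave 24.8% in the CTL retina and 44.6% in the CTL choroid, near the endothelial values. Surface epithelium and erythroid miRNAs gave the lowest medians of these 8 lists in both pools, and 1 share did not describe every list.

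**Figure D5:**
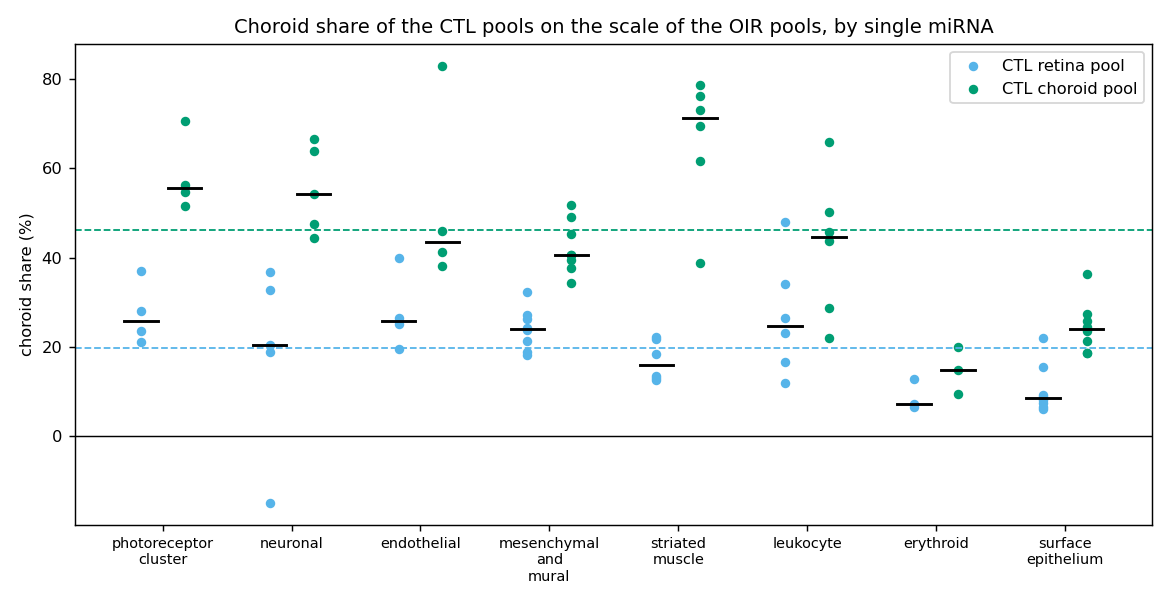
Each point is the choroid share (percent) of a CTL pool computed from 1 miRNA that differed at least 4-fold between the OIR pools, by marker list, for the CTL retina (blue) and the CTL choroid (green); black bars are medians and dashed lines the shares of the fit over 100 miRNAs (19.7% and 46.1%). A share below 0 means a CTL retina level beyond that of the OIR retina.

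The test of the tissues at P7 treated the arms as repeats, so that its spread holds the oxygen effect. In edgeR's quasi-likelihood test over all 12 libraries, 0 of 687 miRNAs (0%) differed between retina and choroid at P7 at a Benjamini-Hochberg adjusted p of 0.05, with 178 at an unadjusted p under 0.05. With the arm as a block edgeR also called 0, with 200 at an unadjusted p under 0.05. DESeq2 called 130 of the 514 miRNAs to which it gave an adjusted p, with 43 higher in the retina and 87 lower. The lowest adjusted p in edgeR was 0.0906, and miR-1-3p (log2 difference -3.34, SE 0.85) and miR-200a-3p (-3.31, SE 0.77) were among those that shared it, both lower in the retina in each of the 2 arms. miR-96-5p (1.39, SE 0.74) had an adjusted p of 0.257 in edgeR, and miR-199a-3p (-2.51, SE 1.13) one of 0.193. Each SE was derived from the log2 difference and the F statistic and was not an output of the fit. The edgeR calls depended on which P7 library was left out. Such a fit leaves a lone P7 sample of a tissue, assumed to vary like the other groups, so only the median log2 difference is given. It was -0.138 without the CTL choroid and -0.223 without the CTL retina. Without the OIR choroid it was -0.081 and without the OIR retina -0.033, against -0.136 in the main fit. The difference between the arms in the tissue ratio at P7 itself could not be tested with 1 library per group, and a fit with the ages as repeats was not run.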

How the data were processed

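Per the labels and the methods, the authors sequenced small RNA of pooled tissue. The kit differs between sources, QIAseq miRNA in the labels and TruSeq Small RNA in the methods. The submitters' processing notes name bcl2fastq 2.20, cutadapt, Bowtie and the rat build Rnor_6.0, and the counting tool, its multi-mapping rule and its use of strand are not given in the sources used here. The deposited values are counts (reads and UMIs per miRNA, from 10 UMIs up) and were not normalized by the authors. The miRNA UMIs numbered 9439805 to 11263013 per P7 library, and 10 UMIs are about 1 RPM.

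UMIs were divided by the miRNA UMIs of the library, times 1e+06 (RPM). Ratios needed at least 100 UMIs in 1 of the 2 libraries (lists, 20), and a miRNA not listed was set to 10 UMIs as a bound. Intervals are exact conditional 95% intervals of counting error. Differential tests used edgeR 4.0.16 (TMM, miRNAs with at least 10 UMIs in a share of 0.5 of the libraries, 6 residual degrees of freedom) and DESeq2 1.42.0 in R 4.3.3. Only the edgeR fit was tried on simulated data, and its recovery is not given here. Other steps ran in Python 3.11.15 with scipy 1.17.1, pandas 2.3.3, matplotlib 3.10.9 and numpy 2.4.6. The blend was fitted on a grid of 0.1%.

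The members and the 16 lists were chosen with earlier results of these data known. Named miRNAs were the members of 5 lists, the 5 most abundant of each library, the 10 highest and lowest ratios per arm at 1000 RPM, the 10 largest differences between arms in each direction, those above 1.2 in one arm and below 0.8 in the other, and the 5 largest edgeR changes in each direction; others served as examples of lists and families. Alternatives were reads, TMM or total reads as scaling, other minimums and thresholds, other references and leaving out libraries. Tables of tRNAs and other RNAs were not used here.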

Additional observations from a re-analysis of the deposited data

How the results depend on the processing

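No paired analysis was possible because the labels give no replicate numbers and each group is 1 pool. TMM scaling moved every OIR log2 ratio by 0.10, and reads in place of UMIs moved a log2 ratio by at most 0.10 in CTL and 0.24 in OIR, so ratios past 2-fold could not change direction under them. Counts moved with the minimum and the threshold. Above 2 in CTL stood 3 miRNAs at 20 UMIs and 84 at a ratio of 1.2, and below stood 35 at 20 UMIs, 4 at 1000 RPM and 115 at a ratio of 0.8. In OIR 22 were above 2 and 40 below 0.5 at 1000 RPM, and 142 were above 1.2. The list counts changed in 1 of 84 alternatives, where reads in place of UMIs left 0 of the miR-29 family above 2 in OIR. DESeq2 called 130 miRNAs where edgeR called 0, and leaving out 1 P7 library at a time gave 0 to 106 edgeR calls, with 84 without the CTL choroid and 106 without the CTL retina; no filter, reads, the arm as a block and the P7 libraries alone gave 0. The causes were not tested.

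The choroid share of the CTL retina was 26.5% with linear RPM, 11.2% with P14 CTL references, 14.8% with P17 CTL references and 17.7% with marker lists alone. That of the CTL choroid was 47.6%, 29.5%, 37.2% and 37.7% in the same order, and 45.4% over all miRNAs with 100 UMIs. Depth limited the miRNAs near 10 UMIs, while 1 pool per group limited all comparisons.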

Other observations

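The deposited tables also list PIWI-interacting RNAs (piRNAs). Of 36 piRNA entries with at least 100 UMIs in 1 of the 2 CTL libraries, 0 were past 2-fold between retina and choroid (median size of the log2 ratio 0.26). Of 38 in OIR, 4 were above 2 and 10 below 0.5 (median size 0.86). Among precursors with both arms counted, miR-224 had the widest gap between its arms. Its 5p arm read 116 RPM in the CTL retina, 194 RPM in the CTL choroid, 36.8 RPM in the OIR retina and 336 RPM in the OIR choroid. Its 3p arm read 13.8, 13.2, 16.7 and 13.1 RPM, so that the arms differed by 3.54 in the OIR log2 ratio and by 0.81 in CTL. It was chosen after its values were seen.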
